A study of Mus musculus with 5 samples.

Results

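The genes described here encode the enzymes that build, modify and cut heparan sulfate and the core proteins that carry it. A list of 37 such genes was taken by gene symbol through the array platform's probe annotation. Of these, 33 had at least 1 probe among the 15967 genes with a named probe, and 24 had a probe bright enough to be tested, among 9685 genes tested in all. Xylt1, Ndst1, Hs6st1 and Hs3st2 were not analysed here. The samples were 3 arrays of F9 cells with a double knockdown of Sox7 and Sox17 (knockdown replicates 1 to 3) and 2 arrays of control F9 cells (control replicates 1 and 2). Both groups carried the same retinoic acid treatment. The sources used here do not give its dose or duration, the knockdown method or the treatment of the control cells. F9 is a mouse embryonal carcinoma line that can differentiate towards extra-embryonic endoderm under retinoic acid, so it is 1 cell line and not an embryo. The labels do not say whether the arrays of a group came from separate cultures, so the p-values measure the spread between these arrays, which may be technical.

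Heparan sulfate is a long, sulfated sugar chain attached to serines of a few core proteins, among them the membrane-spanning syndecans, the lipid-anchored glypicans and the basement membrane protein agrin. A short linker is made on the core protein, exostosins lengthen the chain, and sulfotransferases and an epimerase then modify stretches of it, while extracellular sulfatases and heparanase act on the finished chain. The sulfation pattern sets which growth factors and protease inhibitors bind, and extra-embryonic endoderm lays down a basement membrane rich in heparan sulfate proteoglycan.

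Intensities are the deposited normalized values, on a linear array scale. Differences are knockdown minus control on a log2(intensity + 16) scale with values below 0 set to 0, which understates the change of dim probes. A gene was called where limma's Benjamini-Hochberg adjusted p over all 13624 tested probes was below 0.05. A probe was tested where it exceeded the array's noise threshold, between 20.1 and 20.2 intensity units, on at least 2 of the 5 arrays. The targeted transcripts were lower in the knockdown arrays. Sox17 had 283, 309 and 243 intensity units in knockdown cells, against 1798 and 1732 in control cells, and fell by 2.60 (SE 0.125, limma adjusted p = 0.00081). Sox7 had 490.1, 403 and 471 in knockdown cells, against 1306 and 1152 in control cells, and fell by 1.40 (SE 0.126, limma adjusted p = 0.0021).

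Of the 24 tested heparan sulfate genes, 7 fell, 3 rose and 14 were not called, a called share of 41.7% where 17.0% of all tested genes were called. The list was chosen with earlier results of these data known, so the gap between these shares is no test of the list. The falls were led by the 3-O-sulfotransferase gene Hs3st1, and included the glypican gene Gpc6, the syndecan gene Sdc4, the 2-O-sulfotransferase gene Hs2st1, the exostosin family genes Extl2 and Ext2 and the sulfatase gene Sulf1. The rises were those of the glypican genes Gpc4 and Gpc1 and of the exostosin-like gene Extl1. Members that fell made up 29.2% of those tested, against 7.97% of all genes, and members that rose 12.5%, against 8.99%. The share of rises counts Gpc4, which had to differ in order to be tested. The median difference was -0.16 over the tested members and 0.0047 over all tested genes, and the median absolute difference 0.42 and 0.21. For 18 of the 24 members (75.0%) the 2 groups of arrays were fully apart, against 51.6% of all tested genes. Each of the 10 called members is represented by a single probe in the annotation. With 1 control array left out the number of called members was 4 (without control replicate 1) or 2 (without control replicate 2), and it was 6 without knockdown replicate 3. In the same fits the calls over all genes numbered 578, 443 and 882, against 1643 with all arrays. Hs3st1 and Gpc4 were the 2 members that stayed called whichever array was left out, although Gpc4 was bright enough to test only because of the knockdown arrays. With no filter on dim probes, Hs3st1, Ext2, Extl1, Extl2 and Gpc1 passed and the other 5 did not, at adjusted p of 0.11 for Gpc4, 0.12 for Gpc6, 0.060 for Sdc4, 0.14 for Hs2st1 and 0.11 for Sulf1. In RNA from a whole culture, fewer cells of a type and less RNA per cell cannot be told apart.

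**Figure D1:**
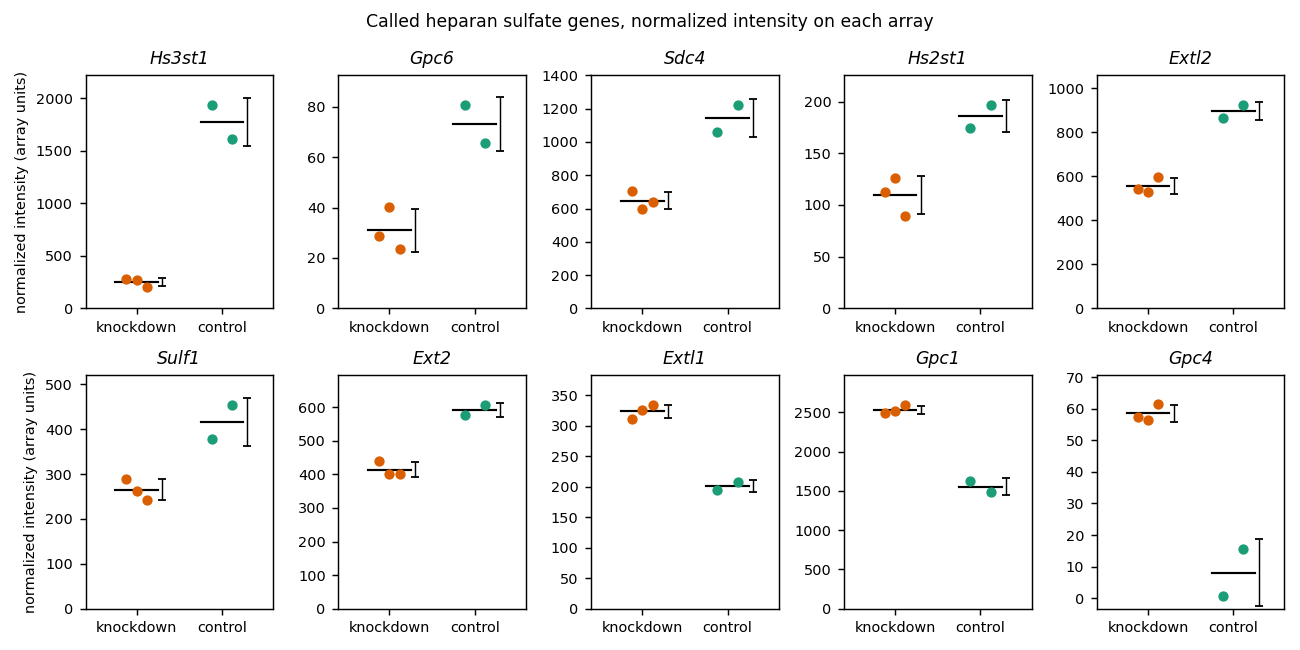
Normalized intensity (array units, linear axis) of the 10 called heparan sulfate genes on each array, with the 3 knockdown arrays left and the 2 control arrays right in each panel. Points are arrays, horizontal lines are group means and the bars beside them are 1 SD. In all 10 panels the arrays of the groups do not overlap, which selection by the call favours. The same held for 51.6% of all tested genes. The panels of Gpc4, Gpc1 and Extl1 have the knockdown arrays above the control arrays.

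**Figure D2:**
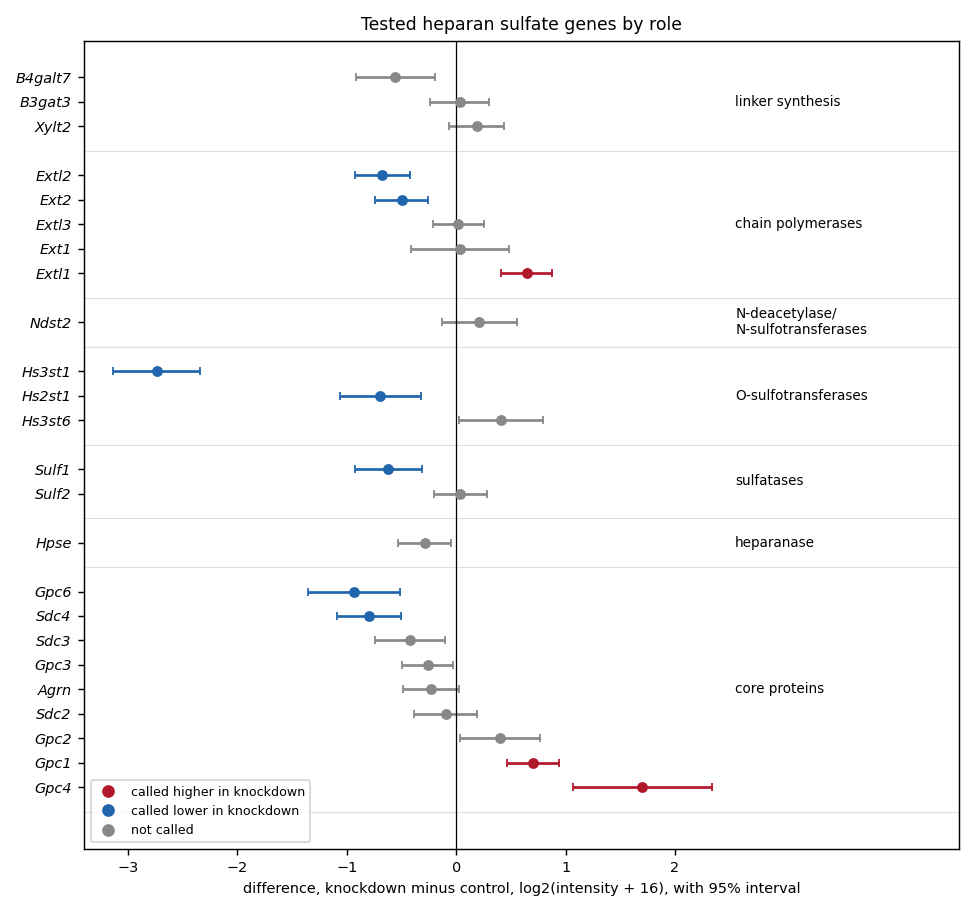
Difference between knockdown and control on the log2(intensity + 16) scale (horizontal axis) for the 24 tested heparan sulfate genes, grouped by role. Points are limma estimates, bars their 95% intervals, and colours mark the call; Hs3st1 lies at -2.74, Gpc4 at 1.70, and all other genes between -0.93 and 0.70.

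Hs3st1 had the largest fitted difference of any tested member, while the change of Gpc4 is known only as a lower bound. It encodes a heparan sulfate 3-O-sulfotransferase known for making the sequence that antithrombin binds. The probe (ILMN_1253182) had 280.1, 273 and 208 intensity units in the knockdown arrays, against 1935 and 1616 in the control arrays. The lowest control array was thus far above the highest knockdown array. The means were 253 ± 40.0 (SD, n = 3) in knockdown cells and 1776 ± 226 (SD, n = 2) in control cells. The gene fell by 2.74 (SE 0.162, 95% interval -3.13 to -2.34, limma adjusted p = 0.00081), which left 15.0% of the control level on this scale. Among the 9685 tested genes only 9 had a larger fall, so that Hs3st1 held rank 10. With single arrays left out the difference lay between -2.87 and -2.61, with adjusted p at most 0.014.

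The other 3-O-sulfotransferase genes gave little signal. Hs3st6 had 22.6, 29.99 and 33.9 in knockdown cells and 13.9 and 21.5 in control cells, close to the noise threshold, with control replicate 1 under it. Its difference of 0.41 was not called (95% interval 0.026 to 0.80, limma adjusted p = 0.13). Hs3st3b1 was under the threshold on every array, with at most 13.8 intensity units. Its close relative Hs3st3a1, from the related lists described further on, had a difference of -0.80 that was not called (SE 0.263, limma adjusted p = 0.093). Whether the difference of Hs3st1 departs from that of Hs3st6 was not tested.

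The promoters of the called genes are shown for the gene with the largest fitted fall (Hs3st1), the gene with the largest fitted rise (Gpc4) and the 2 that hold a SOX core word (Ext2 and Extl2). RefSeq sequences on GRCm38.p6 were available for 7 of the 10 called genes, with 2 start sites for Extl2. Gpc1, Gpc6 and Sulf1 had none in the table used. Each sequence is the 250 bases before the annotated transcription start, read 5′ to 3′ on the gene's strand. Capitals mark the SOX core word ACAAT or its reverse complement ATTGT. The word ACAAAG, or CTTTGT on the other strand, was searched as well, and the 2 words share the letters ACAA at their start without either holding the other.
Hs3st1 (chr5:39644632-39644881, minus strand): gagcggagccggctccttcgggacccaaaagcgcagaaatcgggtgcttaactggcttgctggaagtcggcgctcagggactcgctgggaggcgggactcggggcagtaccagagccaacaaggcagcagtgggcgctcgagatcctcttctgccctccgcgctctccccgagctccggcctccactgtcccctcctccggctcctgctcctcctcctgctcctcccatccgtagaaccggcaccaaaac
Gpc4 (chrX:52164924-52165173, minus strand): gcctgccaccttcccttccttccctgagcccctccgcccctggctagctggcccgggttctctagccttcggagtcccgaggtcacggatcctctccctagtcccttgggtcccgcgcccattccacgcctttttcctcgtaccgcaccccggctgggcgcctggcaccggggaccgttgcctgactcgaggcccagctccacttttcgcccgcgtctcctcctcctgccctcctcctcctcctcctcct
Ext2 (chr2:93822569-93822818, minus strand): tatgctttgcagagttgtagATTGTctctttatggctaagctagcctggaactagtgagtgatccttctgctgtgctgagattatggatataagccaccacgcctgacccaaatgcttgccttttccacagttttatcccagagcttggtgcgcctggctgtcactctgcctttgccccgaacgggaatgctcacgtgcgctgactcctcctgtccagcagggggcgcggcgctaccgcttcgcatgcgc
Extl2, downstream start site (chr3:116008047-116008296, plus strand): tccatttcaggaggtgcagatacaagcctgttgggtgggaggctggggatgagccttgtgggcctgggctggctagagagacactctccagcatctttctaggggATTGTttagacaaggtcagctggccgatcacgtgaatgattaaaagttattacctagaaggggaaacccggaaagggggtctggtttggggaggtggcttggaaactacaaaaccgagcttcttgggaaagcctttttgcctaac

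The windows of Hs3st1 and Gpc4 hold neither word. That of Ext2 has ATTGT beginning 230 bases before the start, and that of the downstream Extl2 start has ATTGT beginning 145 bases before it. In all, 2 of the 8 promoters of called members held ACAAT or ATTGT (25%), against 27.7% of 32851 promoters of all genes. The longer word was in 0 of the 8, against 16.5% of all promoters. Of the 12 promoters of tested members that were not called, 3 held the shorter word and 2 the longer one. These are matches of letters in a short window.

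Hs2st1, the only tested O-sulfotransferase gene besides Hs3st1 and Hs3st6, also fell. It adds the 2-O-sulfate to uronic acid, mostly after the epimerase has acted. The probe had 113, 126 and 89.5 intensity units in knockdown cells, against 175 and 197 in control cells, with no overlap. Hs2st1 fell by 0.69 (SE 0.151, limma adjusted p = 0.031), to 61.8% of the control level. This call was lost without control replicate 1 (adjusted p = 0.098), control replicate 2 (0.17), knockdown replicate 1 (0.069) or knockdown replicate 3 (0.057), and with an offset of 4 (0.0504). The 6-O-sulfotransferase genes Hs6st2 and Hs6st3 were under the noise threshold on every array.

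Of the earlier modifying enzymes, the N-deacetylase/N-sulfotransferase gene Ndst2 could be tested. These enzymes replace acetyl groups of glucosamine with sulfate and so mark where later modification occurs. Ndst2 had 388, 305 and 403 in knockdown cells and 304 and 318 in control cells. The groups overlapped, and the difference of 0.21 was not called (95% interval -0.13 to 0.56, limma adjusted p = 0.36). Ndst3 and Ndst4 were under the threshold on every array. So was the epimerase gene Glce, apart from 22.9 intensity units on knockdown replicate 3.

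The exostosin genes moved in different directions. Of the 5 members, all tested, 2 fell, 1 rose and 2 were not called (60% called, against 17.0% of all tested genes). The median difference was 0.018. Ext1 and Ext2 encode the subunits of the polymerase that lengthens the chain. Ext2 had 439.8, 401 and 402 in knockdown cells, against 577 and 606 in control cells, and fell by 0.50 (SE 0.0991, limma adjusted p = 0.024). Its call held without knockdown replicate 1 (adjusted p = 0.042) and was lost when any other array was left out (adjusted p 0.068 to 0.13). Ext1 had 499.7, 559.8 and 578 in knockdown cells and 431 and 653 in control cells. The control arrays lie on both sides of the knockdown arrays, and the difference of 0.035 was not called (95% interval -0.41 to 0.49). Without control replicate 1 the difference of Ext1 was -0.25.

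The exostosin-like genes differed likewise. Extl2 encodes a transferase that can add a sugar to the phosphorylated linker and so end chain growth. It had 542, 529 and 597 in knockdown cells, against 867 and 924 in control cells, and fell by 0.67 (SE 0.104, limma adjusted p = 0.011). Extl1, which encodes a related glucosamine transferase, had 311, 326 and 334 in knockdown cells, against 194 and 208 in control cells, and rose by 0.64 (SE 0.0962, limma adjusted p = 0.010). In both the arrays of a group lay close together and the groups did not overlap. Both calls were lost without either control array, at adjusted p of 0.056 and 0.079 for Extl2 and 0.067 and 0.057 for Extl1 (control replicates 1 and 2). Extl3, whose product starts the chain on the linker, had 2898, 2989 and 2823 in knockdown cells and 2766 and 2971 in control cells. Its difference of 0.018 was not called, with a 95% interval of -0.22 to 0.25. Its other probes, 2 in number, were under the noise threshold on every array.

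None of the 3 tested genes of linker synthesis was called. The xylosyltransferase gene Xylt2, whose product starts the linker, had 609.96, 541 and 548 in knockdown cells and 497 and 493 in control cells, with a difference of 0.19 (limma adjusted p = 0.27). B4galt7 encodes the galactosyltransferase that acts next. It had 74.2, 108 and 89.1 in knockdown cells and 140.01 and 138 in control cells, and its difference of -0.56 just missed the threshold (SE 0.149, limma adjusted p = 0.055). This gene was called under 5 of the alternative settings, among them the fit without knockdown replicate 2 (adjusted p = 0.040) and the noise threshold at a one-sided 0.005 (adjusted p = 0.042). Under the other settings, which were more numerous, B4galt7 was not called. Among these were no filter on dim probes (adjusted p = 0.20) and the fit without knockdown replicate 3 (adjusted p = 0.12). B3gat3, the glucuronosyltransferase that completes the linker, had a difference of 0.032 (95% interval -0.24 to 0.30). B3galt6 was under the threshold on every array.

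The sulfatases and heparanase act on the finished chain. Sulf1, which removes 6-O-sulfate outside the cell, had 289, 263 and 242 in knockdown cells, against 379 and 453 in control cells. The groups did not overlap, and the gene fell by 0.62 (SE 0.127, limma adjusted p = 0.026). Its call held without knockdown replicate 1 (adjusted p = 0.042) and was lost without knockdown replicate 2 (0.071), knockdown replicate 3 (0.073), control replicate 1 (0.060) or control replicate 2 (0.15). Sulf2, an enzyme of the same activity, had 3372, 3655 and 3405 in knockdown cells and 3513 and 3270.2 in control cells. These arrays overlapped, and the difference of 0.036 (95% interval -0.21 to 0.28) was not called. Whether the differences of Sulf1 and Sulf2 depart from each other was not tested. Hpse, heparanase, which cleaves the chain, had 30.1, 31.8 and 27.5 in knockdown cells and 38.1 and 41.8 in control cells, a difference of -0.29 that was not called (limma adjusted p = 0.11).

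Core protein genes split by family member. Of 11 members, 9 were tested, 2 rose and 2 fell (44.4% called, against 17.0% of all tested genes). The median difference was -0.23. The glypicans gave both rises. Gpc4 had 57.5, 56.5 and 61.5 intensity units in the knockdown arrays, which lay within a narrow range, against 0.56 and 15.7 in the control arrays, both under the noise threshold. It was at least 2.90-fold higher in knockdown cells (fitted difference 1.70, SE 0.262, limma adjusted p = 0.011). Because it passed the brightness filter only through the knockdown arrays, it had to differ in order to be tested. The fitted difference depends on the offset and was 2.72 with an offset of 4 and 0.77 with an offset of 64.

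Gpc1 had 2497, 2516 and 2589.9 in knockdown cells, against 1628 and 1481 in control cells. All knockdown arrays were above both control arrays, and the gene rose by 0.70 (SE 0.0974, limma adjusted p = 0.0083), 1.63-fold. Its call was lost without control replicate 2 (adjusted p = 0.064). Gpc6 moved the other way, with 28.7, 40.4 and 23.8 in knockdown cells, against 80.6 and 65.5 in control cells. It fell by 0.93 (SE 0.173, limma adjusted p = 0.019), with knockdown values little above the noise threshold. The call of Gpc6 held without knockdown replicate 2 (adjusted p = 0.019) and was lost when any other array was left out (adjusted p 0.0501 to 0.11).

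The remaining glypicans were not called. Gpc2 had 358, 352 and 461 in knockdown cells and 269 and 311 in control cells, a difference of 0.40 (limma adjusted p = 0.13). Gpc3, a glypican known for its part in limiting embryonic growth, had 1466, 1466 and 1385 in knockdown cells and 1790.3 and 1669 in control cells, a difference of -0.26 (95% interval -0.50 to -0.027, limma adjusted p = 0.12). The groups did not overlap in either gene. Gpc3 and Gpc4 are neighbours on the X chromosome with 0 protein-coding genes annotated between them, and the same holds for Gpc5 and Gpc6 on their chromosome. Whether the differences of Gpc3 and Gpc4 depart from each other was not tested. Gpc5 was under the noise threshold at all 3 of its probes on every array.

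The differences of the 3 tested syndecan genes were all below 0, as were those of 4795 of all 9685 tested genes. Of the 3, 1 was called (33.3%, against 17.0% of all tested genes). Sdc4, a syndecan of cell-matrix contacts, had 706, 600.1 and 638 in knockdown cells, against 1061 and 1222 in control cells. It fell by 0.80 (SE 0.120, limma adjusted p = 0.010), to 57.4% of the control level, without overlap. The call was lost without control replicate 2 (adjusted p = 0.073). Sdc3 had 194, 176 and 148 in knockdown cells and 242 and 231 in control cells, a difference of -0.42 that was not called (95% interval -0.74 to -0.11, limma adjusted p = 0.080). Sdc2 had a difference of -0.095 (limma adjusted p = 0.62) with overlapping arrays. Sdc1 exceeded the noise threshold on 1 array, control replicate 1, at 24.7 intensity units, and its other probe on none. Agrn, the agrin gene, was bright, with 6955, 6868 and 6374 in knockdown cells and 7441 and 8365 in control cells, and its difference of -0.23 was not called (limma adjusted p = 0.20).

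Of the 39 probes of the members, 24 were tested, 1 for each gene tested. The 15 others lay between -30.3 and 24.7 intensity units, and 13 of them exceeded the noise threshold on no array. For the 9 genes with no tested probe a difference was not detectable at this signal.

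**Figure D3:**
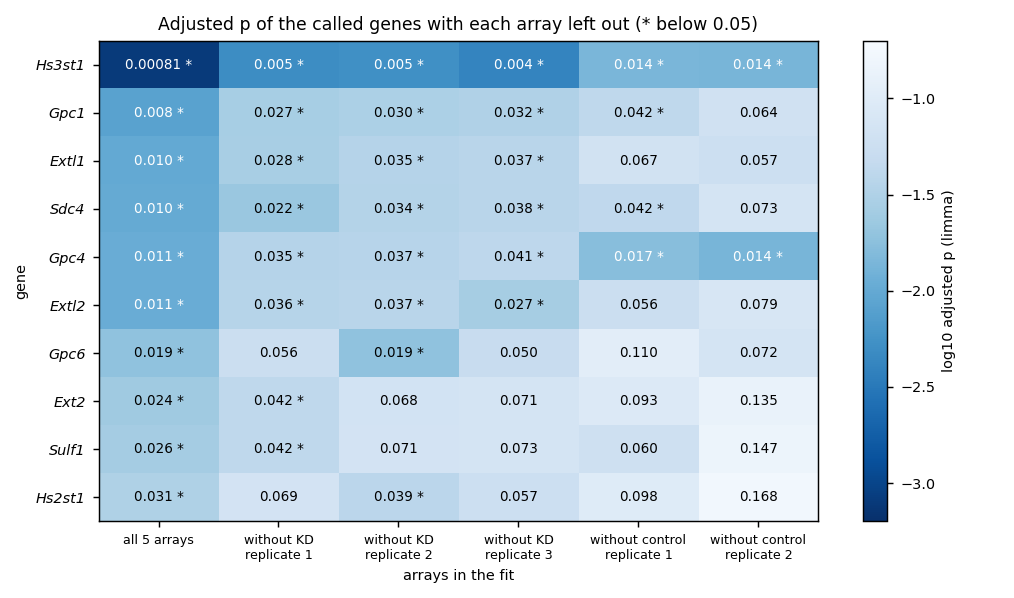
Adjusted p from limma for the 10 called heparan sulfate genes (rows) with all 5 arrays and with each array left out (columns), shaded on a log10 scale. Stars mark values below 0.05: Hs3st1 and Gpc4 have a star in every column. The brightness filter was the same in every column, and Gpc4 passed it only through the knockdown arrays. With no filter on dim probes and all 5 arrays, the limma adjusted p of Gpc4 was 0.11.

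Genes around the pathway were described with 5 further lists. In the supply of sulfate and sugar nucleotides, 3 of 8 tested genes fell and 0 rose (37.5% called, against 17.0% of all tested genes). Slc26a2, a sulfate transporter of the plasma membrane, had 11.9, 20.4 and 21.1 in knockdown cells, against 49.8 and 61.5 in control cells, and fell by 1.09 (SE 0.162, limma adjusted p = 0.0099). Its knockdown values lay close to the noise threshold, with knockdown replicate 1 under it. The fitted difference of Slc26a2 depends on the offset and was -1.48 with an offset of 4 and -0.55 with an offset of 64. Slc35b3, a Golgi transporter of the sulfate donor, fell by 0.48 (limma adjusted p = 0.026), and Slc35d2, a Golgi nucleotide sugar transporter, fell by 0.47 (limma adjusted p = 0.023). The sulfate donor synthase gene Papss1 had a difference of 0.029 and was not called (limma adjusted p = 0.86). The call of Slc26a2 was lost without control replicate 2 (adjusted p = 0.073), that of Slc35d2 with any 1 array left out (adjusted p 0.060 to 0.13) and that of Slc35b3 with any left out but knockdown replicate 1 (adjusted p up to 0.13).

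Of 7 tested genes for chondroitin and dermatan sulfate enzymes, which use the same linker, 2 fell and 1 rose. The called share was 42.9%, against 17.0% of all tested genes. Csgalnact1, which encodes the enzyme that commits the linker to chondroitin sulfate, was under the noise threshold on all 3 knockdown arrays, against 48.3 and 32.3 in control cells. It was at least 1.96-fold lower in knockdown cells (limma adjusted p = 0.0016), and it passed the brightness filter only through the control arrays, so it had to differ in order to be tested. Chst15, a chondroitin sulfotransferase gene, had 219, 178 and 215 in knockdown cells, against 511 and 393 in control cells, and fell by 1.08 (SE 0.153, limma adjusted p = 0.0088). The chondroitin 6-O-sulfotransferase gene Chst3 rose by 0.52 (limma adjusted p = 0.022). Chst15 lost its call without control replicate 1 (adjusted p = 0.052), and Chst3 without any single array other than knockdown replicate 1 (adjusted p up to 0.12).

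Among other heparan sulfate genes outside the list of members, 3 of 6 tested rose and 1 fell (66.7% called, against 17.0% of all tested genes). Pxylp1 encodes the phosphatase that removes the phosphate from the linker xylose. It had 1610.5, 1595 and 1617 in knockdown cells, against 985 and 1056 in control cells, and rose by 0.65 (SE 0.0935, limma adjusted p = 0.0091). Its dimmer tested probe had a difference of -0.11 and was not called, and the call of the gene was lost without control replicate 1 or 2 (adjusted p up to 0.063) and with the mean of its probes. Fam20b, the kinase that adds this phosphate, had a difference of 0.097 (limma adjusted p = 0.71). Of the core proteins in this list, Hspg2, perlecan, fell by 0.87 and Col18a1 rose by 1.28 (limma adjusted p = 0.0061 and 0.0016). Notum, a secreted carboxylesterase, rose by 0.47 (limma adjusted p = 0.046), which did not pass with any 1 array left out (adjusted p up to 0.22).

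The other 2 lists cover breakdown of the chain and core proteins of chondroitin sulfate type. Of 5 tested genes of lysosomal heparan sulfate breakdown, 1 fell (20% called, against 17.0% of all tested genes): Hgsnat, the acetyltransferase of this route, fell by 0.55 (limma adjusted p = 0.016), a call lost without control replicate 1 or 2 (adjusted p up to 0.094). Of 6 tested chondroitin sulfate core proteins, 1 fell and 1 rose (33.3% called). Srgn, the intracellular proteoglycan serglycin, had 2132, 2725 and 2357 in knockdown cells, against 10032 and 8702 in control cells, and fell by 1.96 (SE 0.139, limma adjusted p = 0.0011). Its second probe fell by 2.04. Dcn, decorin, which is also among the fibroblast markers below, had 34.3, 29.7 and 46.8 in knockdown cells and did not exceed the noise threshold in control cells. It was at least 1.80-fold higher in knockdown cells (limma adjusted p = 0.0020), and it passed the brightness filter only through the knockdown arrays, so it too had to differ. A second tested Dcn probe had a difference of 0.71 and was not called (limma adjusted p = 0.12). The remaining Dcn probes were under the noise threshold on every array.

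**Figure D4:**
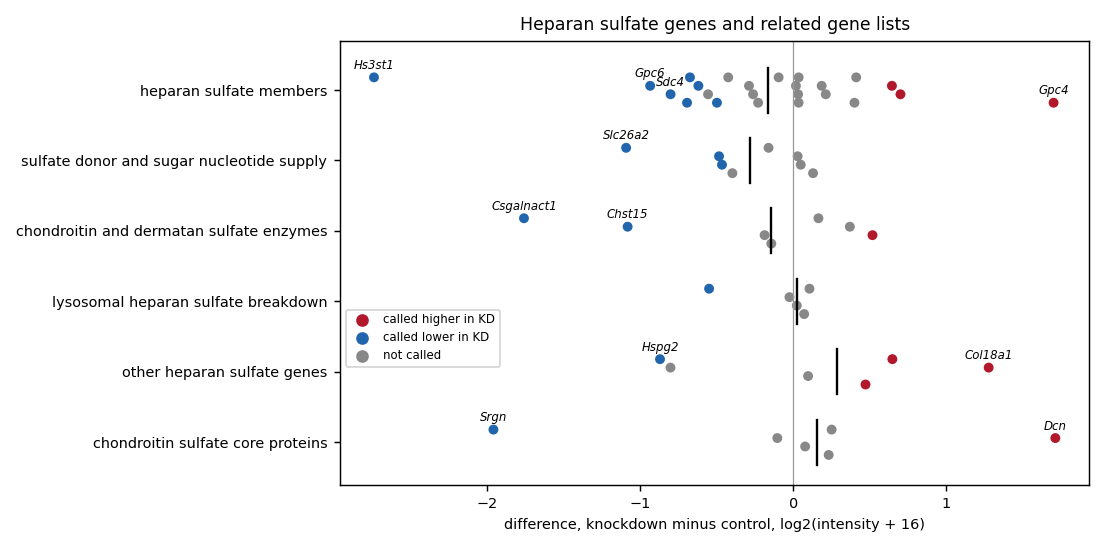
Difference between knockdown and control on the log2(intensity + 16) scale (horizontal axis) for the tested genes of the heparan sulfate members and of 5 related lists. Each point is a gene coloured by its call and each black line is a list median; called genes beyond 0.8 in size are named, and the medians lie between -0.28 and 0.28.

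Markers of cell types moved between the groups as well. Over all tested genes 8.99% were called higher and 7.97% lower. All 7 embryonal carcinoma markers with a probe were above the noise threshold on every array, and their summed intensity, to which the bright Nanog and Pou5f1 probes contribute most, was 24522 to 27153 in knockdown cells and 19357 to 21383 in control cells. Of these 7, 2 rose (Nanog and Tdgf1), 1 fell (Lin28a, by 1.05, limma adjusted p = 0.0083) and 4 were not called. Sox2 was not called by its brighter probe (difference 0.37, limma adjusted p = 0.18). Its dimmer probe was called higher (difference 0.45, limma adjusted p = 0.034). The 7 parietal endoderm markers summed to 17779 to 20653 in knockdown cells and 67073 to 68874 in control cells, and 6 of 6 tested fell. Col4a1 and Col4a2 contributed most to these sums. Of the visceral endoderm markers 4 of 4 tested fell, and Afp was under the threshold on every array. The sums were 759.7 to 859.5 in knockdown cells and 3287 to 3640.2 in control cells, with Amn contributing most. Among the 4, Ttr passed the brightness filter only through the control arrays, so it had to differ in order to be tested. Of 7 fibroblast markers 4 (Col1a2, Col3a1, Lum and Postn) were under the threshold on every array. The 2 tested, Pdgfrb and Dcn, rose, Dcn with the limits given above. The sums were 183 to 215 in knockdown cells and 94.8 to 103 in control cells, with Pdgfrb contributing most. Of 6 endothelial markers 4 were under the threshold on every array and 0 of 2 tested were called. The part of these shifts in the differences of the heparan sulfate genes was not tested.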

How the data were processed

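RNA from F9 cells was labelled with biotin as cRNA (Ambion MessageAmp) for 5 Illumina expression arrays, as the labels' protocols record. The values used are the intensities the authors deposited for 24613 probes. Between 29.1% and 29.2% of them are below 0 on each array, and the sorted arrays differ by at most 0.39. Background subtraction and a common distribution therefore preceded deposit. The sources used here do not name the software. Any overall RNA difference between arrays is lost. A deposited table of non-normalized signals was not used, since its 10 per-sample columns match no label.

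Values below 0 were set to 0, 16 was added and log2 taken. The noise threshold is the 90% quantile of the sizes of an array's values below 0. Probes above it on at least 2 of 5 arrays were fitted with limma 3.58.1 (R 4.3.3; figures with Python 3.11.15 and matplotlib 3.10.9), double knockdown against control, without covariates and with 3 residual degrees of freedom. The fit was tested on simulated data. For a gene with several tested probes, the brightest on average was taken. Where a group is under the threshold on all arrays, the fold is a bound computed on log2 intensity without the offset. Probe names came from the platform annotation, and 0 symbols needed updating against RefSeq; 2 older list symbols were moved to current ones. All members with a probe are accounted for, as are the called genes of each related list, at most 4 a list. The members and lists were chosen with earlier results of these data known. Alternatives were other offsets, filters, scaling, variance trend, probe averaging, a replicate block and leaving out each array. The number of arrays limits the precision.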

Additional observations from a re-analysis of the deposited data

How the results depend on the processing

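The direction of all 10 called members, Sox7 and Sox17 was the same under every alternative that was run, except that Gpc4 had no value where all 5 arrays had to exceed the noise threshold. The number of called members, with the count over all genes beside it (10 and 1643 as reported), was 9 with an offset of 4 (1305 genes), 12 with an offset of 64 (2412), 11 where all 5 arrays had to exceed the noise threshold (1925), 11 with that threshold at a one-sided 0.005 (1836), and 10 with arrays centred on the median (1643) or with probes averaged (1739). With no filter on dim probes it was 5 (3 lower), beside 770 genes called in all. With an intensity trend in the variance 11 members were lower, of 15 called, beside 2621 genes; B4galt7, Sdc3, Gpc2, Gpc3 and Agrn were the added calls. Without the dim-probe filter Slc26a2, Chst15 and Notum also lost theirs. With single arrays left out, 2 to 9 members were called, 1 to 3 higher and 1 to 6 lower, beside 443 to 1107 genes; the lowest counts came without control replicate 2. Fewer arrays lower the residual degrees of freedom. With the replicate number as a replicate block 4 members were called, 2 of them lower, beside 828 genes. Knockdown replicate 3 has no control of its number, so the block takes it out of the difference. The differences under the block thus equal those without knockdown replicate 3, and the block also lowers the residual degrees of freedom. Deviations of same-numbered arrays correlated at 0.0072 and 0.073. With 2 control arrays, whose deviations mirror each other, this cannot exclude pairing. The labels do not name pairs, so the numbers are not read as pairs. Some members that were not called changed sign. B3gat3 and Ext1 gave -0.026 and -0.0061 without knockdown replicate 3 and, by construction, the same under the replicate block. Without knockdown replicate 2, Extl3 and Sulf2 gave -0.0033 and -0.00063. Without control replicate 1, Ext1 and Extl3 gave -0.25 and -0.033, and without control replicate 2 Sulf2 gave -0.016. Over the fits with 1 array left out the highest values were 0.096 for B3gat3, 0.33 for Ext1, 0.069 for Extl3 and 0.087 for Sulf2. The cause of these changes was not tested.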
